A study of Homo sapiens with 15 samples.

Results

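Cadherins are transmembrane proteins that hold neighbouring cells together, and catenins tie their cytoplasmic tails to the actin cytoskeleton. This report follows 10 of these genes, 7 cadherins (CDH1, CDH2, CDH3, CDH4, CDH6, CDH11 and CDH13) and 3 catenins (CTNNA1, CTNNB1 and CTNND1), chosen by their symbols among the 28395 genes of the table of counts. All 10 were found in the table. Epithelia usually rely on E-cadherin (CDH1), and its replacement by N-cadherin (CDH2) or other cadherins, known as cadherin switching, is a classical sign of an epithelial-mesenchymal transition. Beta-catenin (CTNNB1) has a second role as the transcriptional effector of Wnt signalling, so its level, its destruction complex and its nuclear partners were examined beside the junction.

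The cells were BEAS-2B, an established human line derived from bronchial epithelium, and RNA-seq was performed on 15 samples. Exposed cells received nanoplastics of polyethylene terephthalate (PET-NPLs) at 50 µg/mL, in the long exposures with medium renewed every 3 to 4 days. Controls, whose label gives no treatment, were harvested at the same times. There were 2 control and 2 exposed samples after 24 h, 2 and 2 after 15 weeks, and 3 control and 4 exposed samples after 30 weeks. By their labels the samples of 24 h and 15 weeks form batch 1 and those of 30 weeks batch 2. Each comparison of exposed with control cells thus lies within 1 batch, whereas time and batch cannot be told apart between 15 and 30 weeks. The labels do not say whether replicates were separate cultures, and the p-values therefore measure the spread between samples, which may be technical.

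Each sample held between 23143202 and 31459990 counts. Levels are counts of a gene per 1000000 counts (CPM) scaled by the TMM method, and levels of different genes are compared only per kilobase of exons (CPM per kb). At 30 weeks, 6 abundant small noncoding RNAs took 22.3% to 31% of all counts in control samples, against 17% to 21.5% in exposed ones, and the TMM factor was lowest, 0.739, in control replicate 1. In the samples of 24 h and 15 weeks the same 6 RNAs took 9.75% to 12.9%, so their share also separated the 2 batches. Among the keratin genes of simple epithelia, KRT8 was at 150 CPM to 616 CPM and KRT18 at 194 CPM to 353 CPM across the condition means. KRT7 averaged 1315 CPM and 1376 CPM in the 2 conditions of 24 h, 18.0 CPM in controls and 5.84 CPM in exposed cells of 15 weeks, and 1.93 CPM and 1.92 CPM at 30 weeks. KRT19 averaged 11.0 CPM and 10.6 CPM at 24 h and 0.766 CPM to 2.88 CPM later. The general epithelial marker EPCAM had at most 24 counts in a sample. The airway differentiation genes NKX2-1, TP63 and FOXJ1 had at most 3 counts in every sample. Vimentin (VIM), an intermediate filament of mesenchymal cells, had means between 1035 CPM and 1604 CPM. Against its epithelial label, the line thus kept KRT8, KRT18 and vimentin at every time, had KRT7 at a high level only at 24 h, and lacked these airway transcripts.

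Sequences upstream of the transcription start are shown for the genes of the table of RefSeq promoters on which the results turn most, namely N-cadherin, the most abundant of the 7 cadherins, and the 2 abundant catenins. The table (build GRCh38.p14) matched 4 of the 10 genes, CDH2, CDH4, CTNNA1 and CTNNB1. Each line gives the 250 bases before the outermost start, 5′ to 3′ on the strand of the gene. Capitals mark GC boxes (GGGCGG or its reverse complement CCGCCC) and CCAAT boxes (CCAAT or ATTGG). The E-box CACCTG, which the repressors of the SNAI and ZEB families can bind, was searched on both strands as CACCTG and CAGGTG. The regions are chr18:28177131-28177380 on the minus strand for CDH2, chr5:138753175-138753424 on the plus strand for CTNNA1 and chr3:41199255-41199504 on the plus strand for CTNNB1.
CDH2: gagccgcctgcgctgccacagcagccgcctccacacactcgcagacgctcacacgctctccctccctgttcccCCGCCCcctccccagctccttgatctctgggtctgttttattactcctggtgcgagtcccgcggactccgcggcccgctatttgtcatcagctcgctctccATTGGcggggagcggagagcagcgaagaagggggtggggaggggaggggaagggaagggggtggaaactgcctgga
CTNNA1: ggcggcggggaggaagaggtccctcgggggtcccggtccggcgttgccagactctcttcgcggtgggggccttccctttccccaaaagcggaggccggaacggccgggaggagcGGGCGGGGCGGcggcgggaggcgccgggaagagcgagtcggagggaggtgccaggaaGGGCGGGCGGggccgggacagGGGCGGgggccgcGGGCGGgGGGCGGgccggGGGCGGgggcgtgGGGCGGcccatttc
CTNNB1: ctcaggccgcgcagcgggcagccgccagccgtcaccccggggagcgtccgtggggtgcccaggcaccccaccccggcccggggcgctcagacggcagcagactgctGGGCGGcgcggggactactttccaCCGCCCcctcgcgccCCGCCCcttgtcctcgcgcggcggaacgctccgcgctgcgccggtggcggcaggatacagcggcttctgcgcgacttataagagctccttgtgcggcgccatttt
The CTNNA1 sequence held 9 GC boxes, some of them overlapping, against 3 for CTNNB1 and 1 for CDH2. Among the 35116 promoters of the table, 42.6% held at least 1 GC box, 13.9% at least 3 and 0.584% at least 8. The CDH2 sequence also held 1 CCAAT box, which 32.0% of all promoters contained. None of the 3 windows held the E-box letters, which were present in 17.5% of all promoters. The GC content was 66.0% for CDH2, 74.4% for CTNNB1 and 80.0% for CTNNA1, against a median of 58.0%.

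The exposure was first compared with passage-matched controls at each time point. After 24 h none of the 10 genes was called by edgeR's quasi-likelihood test (Benjamini-Hochberg adjusted p under 0.05), where 0% of the 16740 tested genes were called. None of the 10 reached an unadjusted p under 0.05 either (1.65% of all genes did), and DESeq2 and limma-voom called none. The fitted log2 fold changes at 24 h ran from -0.25 to 0.16, with a median of 0.03 (0.001 over all genes tested). After 15 weeks the result was the same, with 0 genes called of the 10, 0 at an unadjusted p under 0.05 (4.92% of all genes), 0 by DESeq2 or limma-voom, and 0% of all genes. The cadherin and catenin profile of exposed cells was therefore not distinguishable from that of controls at the first 2 time points with 2 samples a group. After 15 weeks the fitted values ran from -3.00 to 1.20, with the widest ones among genes of a few counts, and had a median of 0.02 (0.005 over all genes). After 30 weeks 3 of the 10 genes differed, N-cadherin and P-cadherin upwards and T-cadherin downwards, where 23.7% of all genes were called, 12% upwards and 11.7% downwards. The median log2 fold change of the 10 was 0.74 (0.008 over all genes), which includes fitted values of CDH4, CDH6 and CDH11 from a few counts. Exposed samples lay wholly above or below the controls for 4 of the 10 genes, CDH2, CDH3, CDH13 and CTNNA1, as did 27.3% of all genes.

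**Figure D1:**
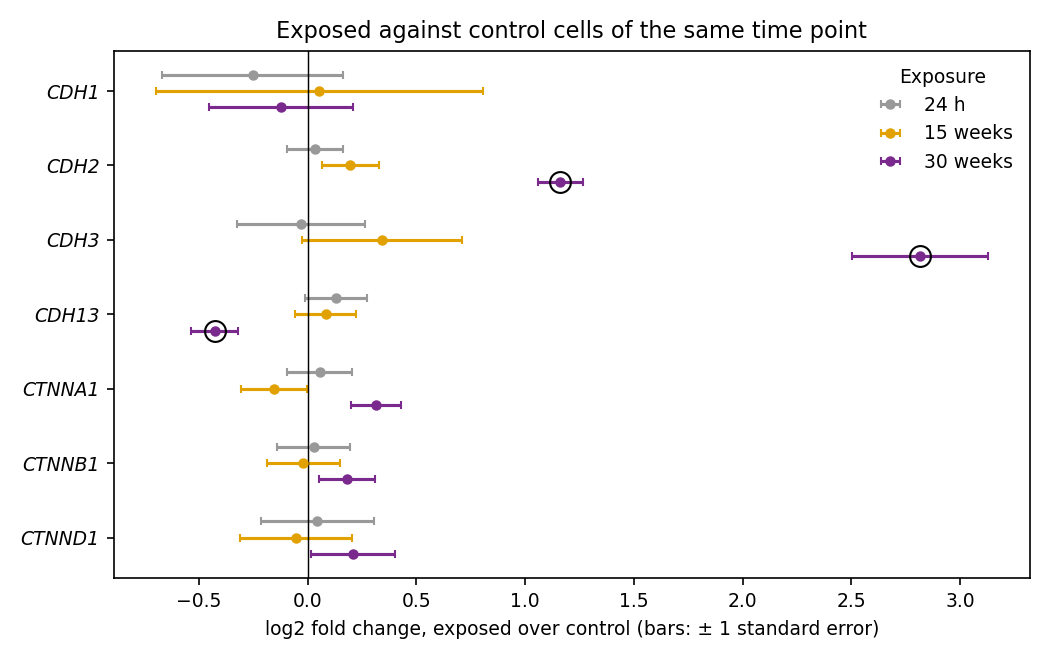
Log2 fold changes (x axis) of 7 cadherin and catenin genes in exposed against control cells at the 3 times, with bars of 1 standard error from edgeR and black rings around the calls at an adjusted p under 0.05. The rings appear only at 30 weeks, on CDH2 (1.16), CDH3 (2.82) and CDH13 (-0.43), while the points of CDH1 lie within 1 standard error of 0 at every time.

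N-cadherin (CDH2, Entrez gene 1000, chromosome 18, 27932879 to 28177130, GRCh38) is the cadherin of neural and mesenchymal cells and was the most abundant of the 7 per length in every sample. Controls held 153 CPM and 158 CPM at 24 h, 158 CPM and 154 CPM at 15 weeks, and 75.4 CPM, 86.1 CPM and 81.4 CPM at 30 weeks. Exposed cells held 159 CPM in both samples at 24 h, 176 CPM and 181 CPM at 15 weeks, and 194 CPM, 183 CPM, 183 CPM and 165 CPM at 30 weeks. The 3 late controls thus stood apart below all other samples, and the exposed cells at 30 weeks overlapped those at 15 weeks. At 30 weeks the level was 181 ± 11.9 CPM (SD, n = 4) in exposed cells and 81.0 ± 5.37 CPM (SD, n = 3) in controls, a 2.24-fold difference. The log2 fold change was 1.16 (standard error 0.102), with an adjusted p = 5.09e-07 in edgeR. At 15 weeks it was 0.20 (standard error 0.129, adjusted p = 1), with a 95% interval from -0.06 to 0.45. The exposure effect at 30 weeks exceeded that at 15 weeks by 0.97 on the log2 scale (standard error 0.164, adjusted p = 0.00199 in edgeR). This difference was called for 2 of the 10 genes, CDH2 and CDH3, both upwards, where 4.74% of all genes were called, 2.66% upwards.

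Along time, CDH2 was lower in late than in earlier controls, while no change passed the test in exposed cells. The level in controls fell by 0.95 on the log2 scale between 15 and 30 weeks (adjusted p = 1.05e-05, edgeR), while in exposed cells the fitted change was 0.02 (standard error 0.112, adjusted p = 0.897), with an interval from -0.20 to 0.24. These comparisons cross the 2 batches. Between 24 h and 15 weeks, within batch 1, CDH2 was not called in controls (log2 fold change 0.002, adjusted p = 0.995) or in exposed cells (0.17, adjusted p = 0.388). The genes whose log2 CPM followed that of CDH2 most closely over the 15 samples were F2RL1 (Pearson's r 0.977), MBOAT1 (0.969) and COL4A5 (0.961). These samples share their conditions and libraries, so the values are a description only.

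P-cadherin (CDH3, Entrez gene 1001, chromosome 16, 68645310 to 68733771) is a cadherin of basal epithelial layers. It stood at 17.0 CPM and 19.5 CPM in controls and at 16.6 CPM and 19.2 CPM in exposed cells at 24 h. At 15 weeks the controls held 1.74 CPM and 0.944 CPM and the exposed cells 1.99 CPM and 1.4 CPM. At 30 weeks it was 0.301 CPM, 0.830 CPM and 0.716 CPM in controls and 4.78 CPM, 3.15 CPM, 4.07 CPM and 5.81 CPM in exposed cells. Every late exposed sample was above every sample of 15 weeks and of the late controls, and below every sample of 24 h. The log2 fold change at 30 weeks was 2.82 (standard error 0.312; edgeR adjusted p = 6.84e-06), the largest in size among the members called there. Counts behind it were 7, 23 and 20 in control samples, against 90 to 165 in exposed samples. The exposure effect exceeded that at 15 weeks by 2.48 on the log2 scale (standard error 0.489, adjusted p = 0.006). Without control replicate 1 of 15 weeks this difference was 1.97 and the call was lost (adjusted p = 0.0777).

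The loss of CDH3 between 24 h and 15 weeks occurred in both arms. It fell by 3.77 on the log2 scale in controls (adjusted p = 1.04e-06) and by 3.4 in exposed cells (adjusted p = 2.28e-06, both from edgeR). From 15 to 30 weeks the 2 arms parted. CDH3 rose in exposed cells (log2 fold change 1.39, adjusted p = 0.00173) and fell by 1.08 in controls (adjusted p = 0.0273, edgeR). The latter call was lost without control replicate 1 of 15 weeks (adjusted p = 0.346), without control replicate 1 of 30 weeks (0.102), with limma-voom (0.0711) and with limma-voom and surrogate variables (0.354).

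T-cadherin (CDH13, Entrez gene 1012, chromosome 16, 82626969 to 83800640) is an atypical cadherin that lacks the cytoplasmic tail and is anchored to the membrane by glycosylphosphatidylinositol, so it does not bind catenins. At 24 h it stood at 24.0 CPM and 23.9 CPM in controls and at 25.1 CPM and 27.4 CPM in exposed cells. At 15 weeks controls held 72.1 CPM and 73.9 CPM and exposed cells 76.5 CPM and 78.1 CPM. At 30 weeks the 3 controls held 64.5 CPM, 78.6 CPM and 70.5 CPM, whereas the 4 exposed samples held 55.7 CPM, 58.8 CPM, 48.7 CPM and 48.5 CPM. CDH13 was the only one of the 10 genes called higher after 15 weeks than after 24 h, with log2 fold changes of 1.61 in controls (adjusted p = 7.86e-07) and 1.56 in exposed cells (adjusted p = 1.01e-06, edgeR). At 30 weeks it was lower in exposed cells (log2 fold change -0.43, standard error 0.107, edgeR adjusted p = 0.00829). The call was lost when each time point was fitted alone (adjusted p = 0.0545), and the difference from the effect at 15 weeks was not called (-0.51, adjusted p = 0.135). In exposed cells CDH13 fell by 0.55 on the log2 scale between 15 and 30 weeks (adjusted p = 0.0016), against a fitted -0.04 in controls (adjusted p = 0.840). An antisense transcript, CDH13-AS2, overlaps 21.4% of the exon bases of CDH13, and the counting strand is not given in the sources used here, so reads of the pair cannot be told apart.

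E-cadherin (CDH1, Entrez gene 999, chromosome 16, 68737292 to 68835537), the cadherin of most epithelia, was close to the limit of detection throughout. It had 27 and 21 counts in the controls and 14 and 21 counts in exposed cells at 24 h. At 15 weeks the 4 samples held 2 or 3 counts each. At 30 weeks the controls held 11 to 19 counts, and the 4 exposed samples held 16 counts each. The level was 0.620 ± 0.213 CPM (SD, n = 3) in late controls and 0.565 ± 0.0101 CPM (SD, n = 4) in late exposed cells, so the groups overlapped. The log2 fold change was -0.12 (standard error 0.332; edgeR adjusted p = 0.837), with a 95% interval from -0.77 to 0.53. E-cadherin transcripts were thus scarce in control cells as well, and no difference by exposure was detectable at this depth.

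CDH1 did differ with time, in both arms alike in direction. Summed over samples, counts scaled to library size were 11.0-fold lower after 15 weeks than after 24 h in controls, with an exact 95% interval from 4.38 to 35.3. In exposed cells they were 8.87-fold lower, with an interval from 3.46 to 29.0. Both decreases were called by edgeR, at adjusted p-values of 0.000277 and 0.000725. CDH1 passed the filter on low counts only through the groups of 24 h and 30 weeks, so nothing is read from these calls. After 30 weeks CDH1 was 7.98-fold higher than after 15 weeks in controls (3.19 to 25.7) and 7.12-fold higher in exposed cells (2.90 to 22.7), across batches. These intervals cover counting error only. Over the 15 samples the closest patterns were those of LGALS3 (r 0.967), NAA10 (0.966) and RPL10 (0.961).

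R-cadherin (CDH4), K-cadherin (CDH6) and OB-cadherin (CDH11, the cadherin of osteoblasts and other mesenchymal cells) were present at 24 h and nearly absent later. CDH4 had 88 to 117 counts in each sample at 24 h, 3 to 8 at 15 weeks and 0 to 12 at 30 weeks. CDH6 had 41 to 59 counts at 24 h, 0 to 6 at 15 weeks and 0 or 1 at 30 weeks. CDH11 had 74 to 108 counts at 24 h, and later 2 counts in 1 control sample of 15 weeks, 2 in 1 exposed sample of 30 weeks and 0 in the remaining samples. These 3 genes passed the filter on low counts (0.35 CPM) only through the 24 h groups, so their change with time was a condition of being tested.

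In controls CDH4 was 18.8-fold lower after 15 weeks than after 24 h (exact 95% interval 10.8 to 35.9), CDH6 43.7-fold lower (14.6 to 215) and CDH11 105-fold lower (28.7 to 873). In exposed cells CDH4 was 28.9-fold lower (14.9 to 64.0) and CDH6 16.8-fold lower (7.86 to 43.0). For CDH11, with 0 counts in exposed cells of 15 weeks, the level was at least 67.6-fold lower, taking a floor of 3 counts over the group. All 6 decreases were called by edgeR. These genes passed the filter on low counts only through the 24 h groups, so nothing is read from the calls. At 30 weeks CDH6 and CDH11 had at most 2 counts over either group, and no fold is given. CDH4 had 2, 0 and 2 counts in the controls and 4, 0, 4 and 12 counts in exposed cells, a ratio of 3.48 (1.17 to 14.0) that edgeR did not call (adjusted p = 0.206). Without exposed replicate 2 it was called (adjusted p = 0.0386). The patterns most like that of CDH11 were those of TMEM156 (r 0.994), UNC5D (0.989) and STAC (0.988).

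**Figure D2:**
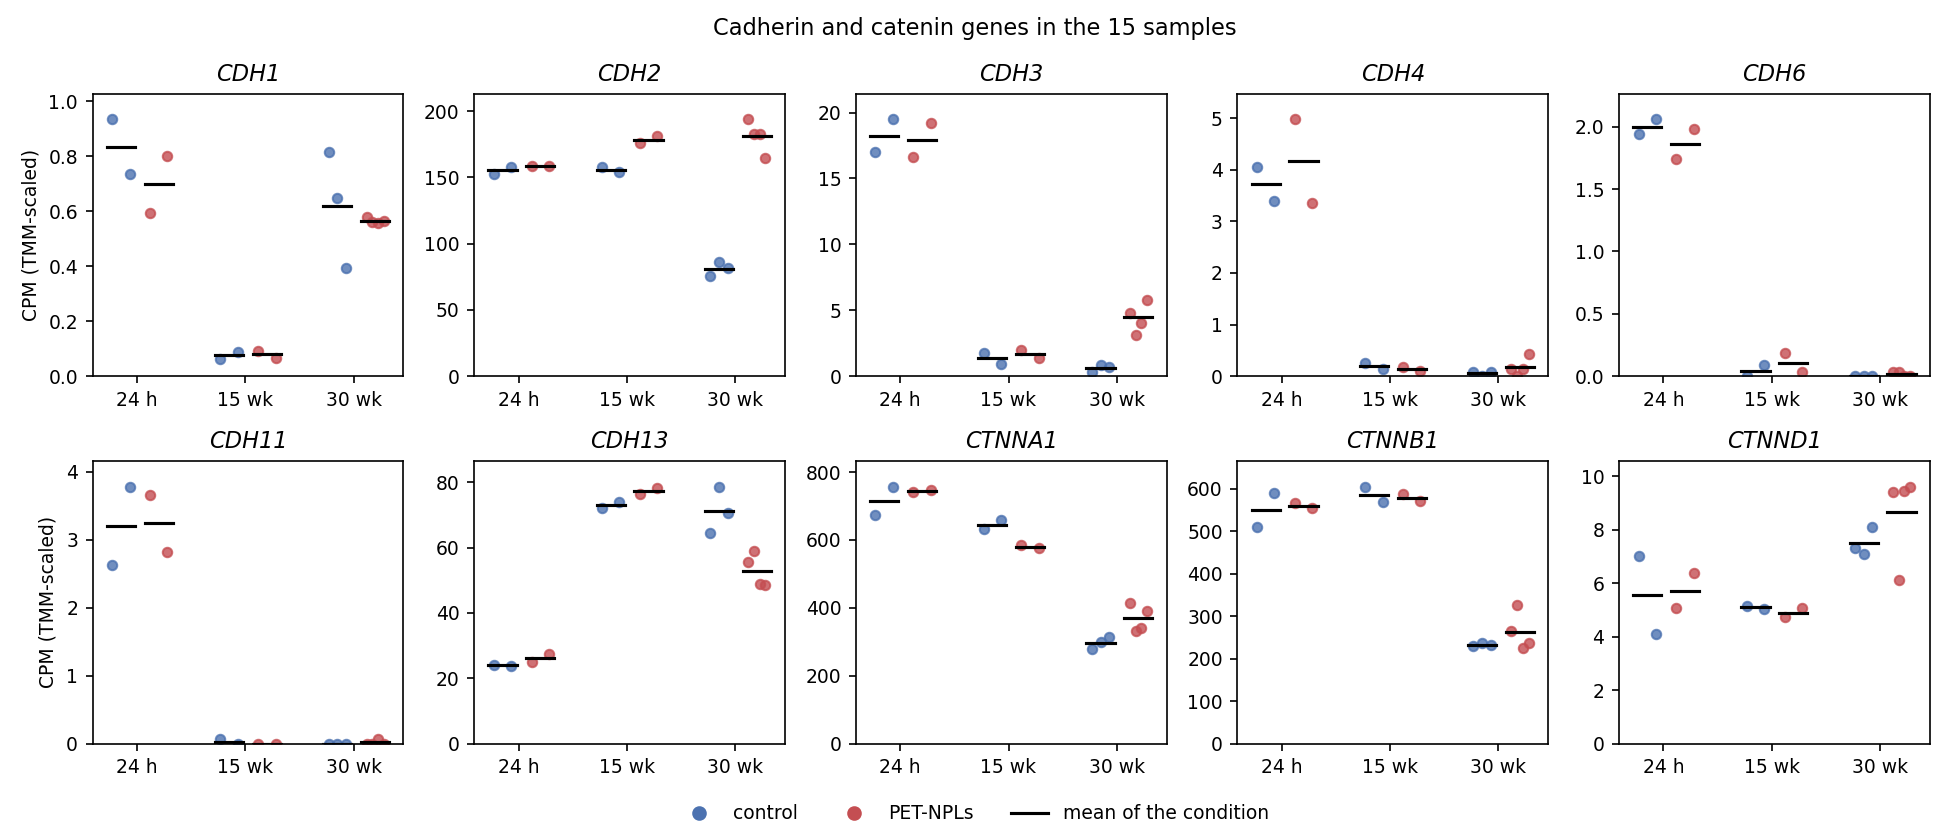
TMM-scaled CPM (y axis, from 0, a scale per gene) of the 10 genes in each sample, controls in blue and exposed cells in red, grouped by time, with a black line at the mean of each condition. CDH3, CDH4, CDH6 and CDH11 drop between 24 h and 15 weeks in both arms, and at 30 weeks the exposed samples of CDH2 and CDH3 lie above the controls and those of CDH13 below them.

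Counting over the passage of cells in batch 1, 6 of the 10 genes differed between 15 weeks and 24 h in controls, 1 upwards (CDH13) and 5 downwards (CDH1, CDH3, CDH4, CDH6 and CDH11), where 24.9% of all genes were called (12.7% upwards and 12.2% downwards). CDH1 was under the filter level at 15 weeks and passed through the groups of 24 h and 30 weeks, so that of the 5 decreases only that of CDH3 was in a gene that also passed at 15 weeks, and nothing is read from these counts against the share over all genes. In exposed cells 6 of the 10 were called as well, 1 upwards and 5 downwards, where 26% of all genes were called (13.5% and 12.5%). Between 15 and 30 weeks, across batches, 5 were called in controls, 1 upwards and 4 downwards (50.3% of all genes, 25.6% and 24.6%), and 6 in exposed cells, 3 upwards and 3 downwards (46% of all genes, 23.3% and 22.7%). Each of these comparisons shares samples with the comparisons by exposure.

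The balance among the 7 cadherins was then expressed as the share of each in their summed level per kb within a sample, which does not depend on the scaling of libraries. CDH2 made up 74.9% ± 0.373 (SD, n = 2) of the sum in controls at 24 h, 72.5% ± 0.391 (n = 2) at 15 weeks and 58.6% ± 0.858 (n = 3) at 30 weeks. In exposed cells it made up 74.8% ± 0.820 (n = 2), 74.0% ± 0.332 (n = 2) and 79.0% ± 1.14 (n = 4). CDH13 took the greater part of the rest, and its share in controls went from 8.98% at 24 h to 26.4% at 15 weeks and 40.1% ± 0.797 (n = 3) at 30 weeks. In exposed cells the CDH13 share was 9.60%, 24.9% and 17.9% ± 1.20 (n = 4). The late controls were therefore the samples in which T-cadherin came closest to N-cadherin, with a ratio of CDH2 to CDH13 of 1.46 ± 0.05 per length, against 4.42 ± 0.338 in late exposed cells. The share of CDH3 was 11.8% and 11.3% in controls and exposed cells at 24 h, below 1.2% in every sample of 15 weeks, and then 0.587% in controls and 2.63% ± 0.777 (n = 4) in exposed cells. CDH1 stayed below 1% of the sum in every sample.

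The ratio of CDH2 to CDH1, the usual measure of the switch, was above 60 per length in every sample. It averaged 134 in controls and 165 in exposed cells at 24 h, and 1500 and 1658 at 15 weeks, where CDH1 rested on 2 or 3 counts a sample. At 30 weeks it was 102 ± 41.1 in controls (65.4 to 146) and 227 ± 13.2 in exposed cells (208 to 237), without overlap. CDH1 rested there on 11 to 19 counts a control sample and on 16 counts in each exposed sample. The small SD of the exposed cells depends on these equal counts. No difference in CDH1 by exposure was detectable, so the gap follows largely from the CDH2 level already compared. The summed level of the 7 cadherins was 16.1 ± 1.29 CPM per kb in late controls and 26.7 ± 1.60 CPM per kb in late exposed cells, and between 24.2 and 28.1 CPM per kb on average in the 4 other conditions. The sum leaves out M-cadherin (CDH15), described below, at 8.06 CPM per kb in late controls and 0.0209 CPM per kb in late exposed cells. The lower sum in late controls therefore holds for these 7 genes only.

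**Figure D3:**
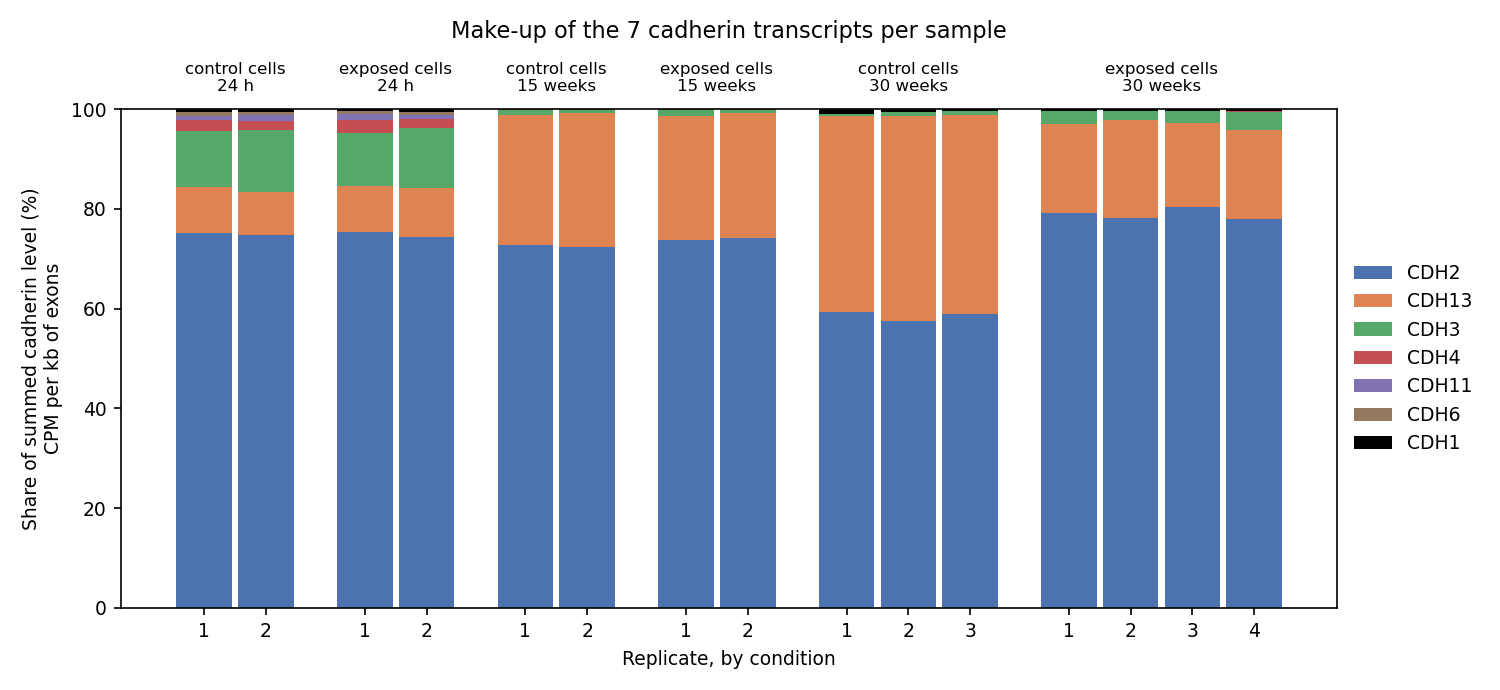
Share (y axis, percent of the summed CPM per kb) of each of the 7 cadherins in the 15 samples (x axis, replicates by condition). CDH2, in blue, makes up 57.7% to 59.3% of the sum in the 3 late controls and 77.9% to 80.4% in the 4 late exposed samples, and CDH13, in orange, takes 39.4% to 41.0% and 16.7% to 19.6%.

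The 3 catenins have different places at the junction. Alpha-catenin (CTNNA1) links the complex to actin, beta-catenin (CTNNB1) binds the distal part of the cadherin tail, and p120-catenin (CTNND1) binds its juxtamembrane part and stabilizes the cadherin at the surface. CTNNA1 and CTNNB1 were the most abundant of the 10 genes per length in the earlier samples, at 81.0 and 46.8 CPM per kb in the 24 h controls, against 18.1 CPM per kb for CDH2.

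CTNNA1 (Entrez gene 1495, chromosome 5, 138753425 to 138935034) stood at 674 CPM and 757 CPM in controls and at 741 CPM and 746 CPM in exposed cells at 24 h. At 15 weeks the controls held 631 CPM and 659 CPM and the exposed cells 584 CPM and 575 CPM. At 30 weeks the controls held 278 CPM, 299 CPM and 314 CPM and the exposed cells 413 CPM, 331 CPM, 342 CPM and 392 CPM. All late samples were thus below all earlier ones, and the late exposed samples lay above the late controls. The log2 fold change by exposure at 30 weeks was 0.31 (standard error 0.115) and missed the threshold in edgeR (adjusted p = 0.0592), with an interval from 0.09 to 0.54. It passed with DESeq2 (0.0149), limma-voom (0.0439), limma-voom with surrogate variables (0.0197) and without exposed replicate 2 (0.0132). At 15 weeks the fitted value was -0.15 (adjusted p = 1). From 15 to 30 weeks CTNNA1 fell by 1.12 on the log2 scale in controls (adjusted p = 8.62e-06) and by 0.65 in exposed cells (adjusted p = 0.000697, edgeR).

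CTNNB1 (Entrez gene 1499, chromosome 3, 41199505 to 41240443) stood at 509 CPM and 591 CPM in controls and 566 CPM and 555 CPM in exposed cells at 24 h. At 15 weeks it stood at 605 CPM and 568 CPM in controls and 587 CPM and 571 CPM in exposed cells. The late controls held 229 CPM, 236 CPM and 232 CPM, and the late exposed samples 266 CPM, 326 CPM, 225 CPM and 237 CPM. These groups overlapped, and the log2 fold change was 0.18 (standard error 0.129, adjusted p = 0.341, edgeR), with an interval from -0.07 to 0.44. From 15 to 30 weeks CTNNB1 fell by 1.34 on the log2 scale in controls (adjusted p = 5.24e-06) and by 1.14 in exposed cells (adjusted p = 2.14e-05). The beta-catenin transcript therefore decreased over time in both arms, across batches, while no difference by exposure passed the test.

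Relative to N-cadherin, the ratio of CTNNB1 to CDH2 per length was 2.10 ± 0.111 in late controls and 1.06 ± 0.172 in late exposed cells, against means from 2.37 to 2.75 in the 4 other conditions. The ratio of CTNNA1 to CDH2 was 3.57 ± 0.193 and 1.99 ± 0.249 at 30 weeks. In both ratios the late control and exposed samples did not overlap, and both follow in part from the CDH2 level that was already compared.

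CTNND1 (Entrez gene 1500, chromosome 11, 57761802 to 57819540) stood at only 0.322 to 0.569 CPM per kb on average, far below the other 2 catenins. In GENCODE a readthrough gene on the same strand shares 39.1% of the exon bases of CTNND1. The RefSeq readthrough gene of this locus, TMX2-CTNND1, was listed with 0 to 3 counts in each sample. How reads of the shared exons were assigned is not given in the sources used here, so the counts of CTNND1 are uncertain. They gave 7.31 CPM, 7.08 CPM and 8.09 CPM in late controls and 9.42 CPM, 6.13 CPM, 9.46 CPM and 9.61 CPM in late exposed cells. The groups overlapped (log2 fold change 0.21, standard error 0.192, adjusted p = 0.479, edgeR). CTNND1 rose between 15 and 30 weeks in exposed cells (log2 fold change 0.82, adjusted p = 0.00772), a call lost without exposed replicate 1 of 15 weeks (adjusted p = 0.0721). In controls the fitted change was 0.56 (adjusted p = 0.0593).

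Of 12 further cadherins of the classical families, 5 passed the filter on low counts, and 4 of these were called at 30 weeks, 3 upwards (CDH5, CDH10 and CDH24) and 1 downwards (CDH15), where 12% of all genes were called upwards and 11.7% downwards. CDH15 passed the filter mainly through the late controls and CDH5 and CDH10 mainly through late exposed cells, where each was high, so a difference was largely a condition of their being tested and nothing is read from this count. CDH15, or M-cadherin, is the cadherin of skeletal muscle precursors. It had 0 counts in all 4 samples of 24 h, 4 and 22 counts in controls and 4 and 0 in exposed cells at 15 weeks. At 30 weeks it reached 956, 734 and 1251 counts in control samples and 3, 6, 1 and 1 counts in exposed cells. Scaled to library size this was 384-fold lower in exposed cells (exact 95% interval 214 to 770, adjusted p = 1.31e-08 in edgeR). Per length, CDH15 stood at 8.06 ± 2.08 CPM per kb (SD, n = 3) in late controls, beside 9.44 ± 0.625 CPM per kb for CDH2 in the same samples. Counted with the 7 cadherins above, it made up 33.2% ± 7.36 of the sum in late controls and 0.0767% ± 0.0645 in late exposed cells. The share of CDH2 in this sum of 8 was 39.1% ± 3.71 and 78.9% ± 1.16.

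Other skeletal muscle genes moved with CDH15 and so with the late controls in which CDH2 was low. Of 14 skeletal muscle markers 10 were tested and 9 were lower in exposed cells at 30 weeks (11.7% of all genes), and their summed level was 383 to 491 CPM in late controls, 32.1 to 45.0 CPM in late exposed cells and 17.4 to 44.7 CPM in the earlier samples. MYOG, TNNI1, DES, CHRNA1 and CDH15 passed the filter on low counts mainly through the late controls, where each was high. A difference was thus largely a condition of their being tested, and nothing is read from the count of lower markers. MYOD1, the myogenic master regulator, averaged 85.3 CPM in late controls and 0.462 CPM in late exposed cells, whereas MYF5 and MYF6 had 0 counts in every sample. The summed level of 13 epithelial markers was 433 to 513 CPM in late controls and 1006 to 1223 CPM in late exposed cells, with 4 of 10 tested genes higher (12% of all genes). The summed level of 12 mesenchymal markers was 2069 to 2572 CPM in late controls and 2116 to 2557 CPM in late exposed cells, with 3 of 10 tested genes higher and 2 lower. These 5 of 10 stand beside 23.7% over all genes. VIM made up most of the mesenchymal sum, at means of 1604 CPM in late controls and 1288 CPM in late exposed cells. KRT8 and KRT18 made up most of the epithelial sum. Their means were 150 CPM and 194 CPM in late controls and 616 CPM and 338 CPM in late exposed cells. The 2 sums therefore say little about the other markers. Of 6 smooth muscle markers 2 were higher, where 12% of all genes were higher. Of 4 tested endothelial and blood cell markers 3 were higher and 1, the macrophage gene CD68, lower (28.1 CPM in late controls and 14.5 CPM in late exposed cells). CDH5 and KDR had at most 21 and 15 counts in a sample and passed the filter mainly through late exposed cells. Nothing is read from the count of endothelial and blood cell markers. CDH1, CDH5 and CDH15 are themselves on these marker lists. The part of these marker genes and of the noncoding RNA share in the cadherin results was not tested, and in bulk RNA fewer cells of a type and less RNA per cell cannot be told apart.

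CDH10, a cadherin of the nervous system, had 21 to 66 counts in late exposed samples and at most 10 in any other. It passed the filter mainly through late exposed cells, so nothing is read from its call. Its level averaged 1.19 ± 0.752 CPM in late exposed cells and 0.170 ± 0.168 CPM in late controls (log2 fold change 2.73, adjusted p = 0.00465, edgeR). CDH24 averaged 14.0 ± 2.37 CPM and 10.2 ± 1.83 CPM (0.47, adjusted p = 0.0362), with ranges that overlapped, and lost its call in 6 of 17 alternative settings, among them without control replicate 2 (adjusted p = 0.153) and without exposed replicates 1 (0.0699), 3 (0.0727) and 4 (0.0986). CDH5, the cadherin of endothelium, had at most 21 counts in a sample.

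Among the transcriptional repressors of CDH1, SNAI2, ZEB1 and TWIST1 were lower in exposed cells than in controls at 30 weeks. Of 10 repressors 9 were tested, 3 were lower and 0 higher, where 11.7% of all genes were lower and 12% higher (median log2 fold change of the 9, -0.10). Among the repressors that did not pass the test were SNAI1 (0.72, adjusted p = 0.212) and ZEB2 (0.34, adjusted p = 0.056, edgeR). SNAI2 was at 24.4 to 27.1 CPM in late controls and at 2.10 to 3.43 CPM in late exposed cells (log2 fold change -3.27, adjusted p = 3.41e-09). ZEB1 was at 28.7 ± 1.23 CPM in late controls and at 13.4 ± 0.981 CPM in late exposed cells (-1.10, adjusted p = 7.38e-07). TWIST1 was at 26.0 ± 2.46 CPM and 12.8 ± 1.18 CPM (-1.02, adjusted p = 2.24e-05, all from edgeR). At 15 weeks SNAI2 averaged 4.7 CPM in controls and 3.68 CPM in exposed cells, and ZEB1 31.5 CPM and 30.8 CPM. TWIST1 then held 12.8 CPM and 10.2 CPM in controls and 12.7 CPM and 13.4 CPM in exposed cells. Across batches, SNAI2 and TWIST1 were thus higher in late controls than in controls of 15 weeks. ZEB1 was instead lower in late exposed cells than in those of 15 weeks. Beside the repressor levels at 30 weeks, CDH1 held 11 to 19 counts in late controls and 16 counts in each late exposed sample. The same 3 genes also differed in the exposure effect between 30 and 15 weeks (ZEB1 -1.07, TWIST1 -1.21 and SNAI2 -2.92 on the log2 scale). In that comparison 4.74% of all genes were called, 2.08% lower, and it shares the samples of 30 weeks with the comparison above. Among 13 regulators of the epithelial programme 7 were tested, and KLF5 was lower (log2 fold change -0.94) and GRHL1, a grainyhead-like factor, higher (0.65) in late exposed cells, again where 23.7% of all genes were called. KLF5 averaged 28.1 CPM in late controls and 14.6 CPM in late exposed cells, against 8.02 CPM and 7.3 CPM at 15 weeks. The GRHL1 call was lost without control replicate 1 (adjusted p = 0.0702), with surrogate variables (0.0668) and with each time point alone (0.0503).

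**Figure D4:**
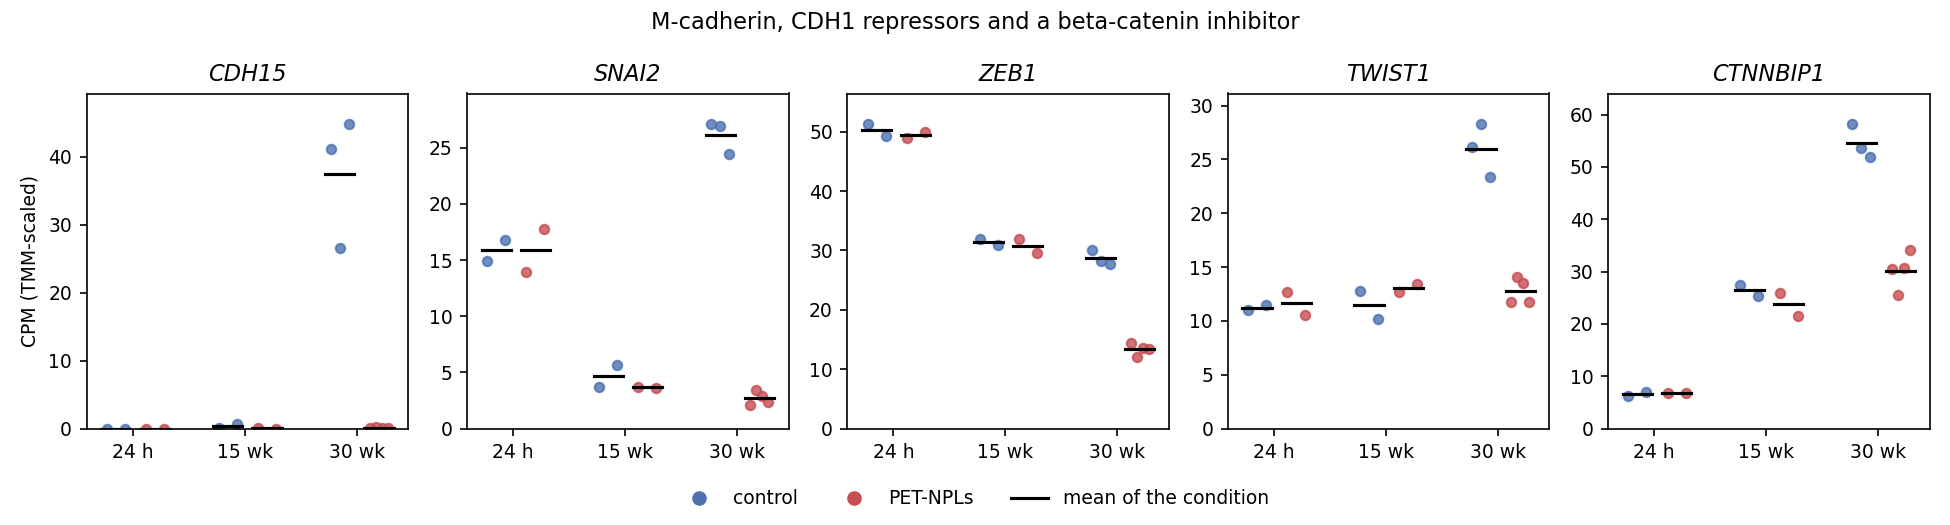
TMM-scaled CPM (y axis, from 0, a scale per gene) of M-cadherin (CDH15), 3 repressors of CDH1 (SNAI2, ZEB1 and TWIST1) and the beta-catenin inhibitor CTNNBIP1 in each sample, controls in blue and exposed cells in red, with a black line at each mean. At 30 weeks the controls lie above the exposed samples for all 5 genes, and CDH15 is near 0 in the other conditions.

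Of 16 other catenins and junction linkers 13 were tested, and 1 was higher and 2 were lower at 30 weeks (median log2 fold change -0.03). These 3 of 13 are close to the share over all genes, 23.7%. CTNNBIP1, which keeps beta-catenin from its nuclear partners, averaged 30.2 ± 3.54 CPM in late exposed cells and 54.6 ± 3.31 CPM in late controls (-0.85, adjusted p = 5.82e-05, edgeR). At 15 weeks its means were 23.8 CPM in exposed cells and 26.5 CPM in controls. CTNNAL1, an alpha-catenin-like gene, was higher (0.66, adjusted p = 0.0239) and NECTIN1, an adhesion molecule of the junction, lower (-0.65, adjusted p = 0.0232). Of 15 genes that cleave, dephosphorylate or internalize cadherins, 5 were higher and 1 was lower (median 0.19), where 12% of all genes were higher and 11.7% lower. Among them were the phosphatase PTPRM (0.64), the sheddase ADAM15 (0.58), the endocytic adaptor NUMB (0.42) and the gamma-secretase subunit PSENEN (-0.57). Of these last 4 and the 3 linkers, CTNNBIP1, PTPRM and ADAM15 kept their call in every alternative setting. Without control replicate 1 of 30 weeks the adjusted p-values were 0.0727 for CTNNAL1, 0.0877 for NECTIN1, 0.18 for NUMB and 0.0954 for PSENEN. Without control replicate 3 the calls of CTNNAL1 (0.084) and NECTIN1 (0.114) were lost. Without exposed replicate 3 those of NECTIN1 (0.0536) and NUMB (0.111) were lost, and without exposed replicate 1 that of NUMB (0.0799).

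On the side of Wnt signalling, 9 genes of the beta-catenin destruction complex were tested, and 2 were higher and 0 lower in late exposed cells (median 0.20), a share close to the 23.7% of all genes called. They were APC, the scaffold of the complex (0.49, adjusted p = 0.0299), and BTRC, the ubiquitin ligase subunit that recognizes beta-catenin (0.34, adjusted p = 0.0293, edgeR), and both lost the call in 4 or more of 17 alternative settings. These include leaving out control replicate 1 (adjusted p = 0.154 for APC and 0.114 for BTRC), control replicate 3 (0.0517 for APC) and exposed replicate 1 (0.0774 for BTRC). Of 16 nuclear partners and target genes 13 were tested, 1 of which was higher and 3 lower (median -0.18), where 12% of all genes were higher and 11.7% lower. LEF1, a DNA-binding partner of beta-catenin, averaged 2.01 ± 0.858 CPM in late controls and 0.167 ± 0.0874 CPM in late exposed cells (-3.56, adjusted p = 0.0003). The targets SP5 (-1.49, adjusted p = 0.0159) and AXIN2 (-0.86, adjusted p = 0.00482) were lower too, while DKK1, a secreted inhibitor of the pathway, was higher (1.07, adjusted p = 0.0148). The samples of DKK1 overlapped, at 71.2 to 146 CPM in late controls and 133 to 400 CPM in late exposed cells, and its call was lost without control replicate 3 (adjusted p = 0.0592) and with each time point alone (0.0714). The call of SP5 was lost without control replicate 1 (adjusted p = 0.0827). LEF1 had 0 counts in 7 of the 8 samples of 24 h and 15 weeks and at most 8 counts in a late exposed sample. It passed the filter on low counts only through the late controls, so a difference was a condition of its being tested. Nothing is read from the count of lower partners and targets. The transcript of beta-catenin itself did not pass the test beside these changes, as given above.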

How the data were processed

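RNA-seq counts per gene were analysed for 15 samples of BEAS-2B cells. The count values are raw counts that the authors deposited without normalization, after filtering reads with Rfastp, mapping them to GRCh38 and counting them per gene with Rsubread (featureCounts in the submitters' processing notes). The libraries came from a stranded kit for total RNA with ribosomal depletion, and the counting strand is not given in the sources used here. Genes carry Entrez numbers, of which 27745 of 28395 had a symbol in RefSeq. The depth of 23143202 to 31459990 counts limits what can be seen below about 1 CPM, and intervals from counts cover counting error only.

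The analysis used R 4.3.3. After filterByExpr, which kept 16740 genes, and TMM scaling, the quasi-likelihood test of edgeR 4.0.16 was run with a mean for each condition and all 15 samples in 1 fit. Adjusted p-values are those of Benjamini and Hochberg, taken over every tested gene. Intervals of log2 fold changes are 1.96 standard errors to either side. Exon lengths are unions of GENCODE v44 exons. Ratios of low counts have exact 95% intervals. The alternatives were DESeq2 1.42.0, limma-voom (limma 3.58.1) with and without 2 surrogate variables (sva 3.50.0), each time point alone, other filters and scalings, counts without 6 small noncoding RNAs, a replicate block and each sample left out. The procedure was tested on simulated data.

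The members, gene lists and tests were chosen with earlier results of these data known. Besides the members, the rule named up to 4 genes of each list with the largest change at 30 weeks among those called with a mean of at least 1 CPM in either group (in a list with none called, its most abundant gene), the highest and the undetected genes of each marker list, and for CDH1, CDH2 and CDH11 the 3 genes with the closest pattern. EPCAM, KRT7, KRT18, KRT19, MYOD1, CDH5, SNAI1 and ZEB2 were named after their values were seen.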

Additional observations from a re-analysis of the deposited data

Results flagged for a closer look

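The CTNND1 level of exposed replicate 2 at 30 weeks, 6.13 CPM, lay apart from the 9.42 CPM, 9.46 CPM and 9.61 CPM of the other 3 exposed samples. The gap was 0.944 of the range, above Dixon's 95% critical value for 4 samples. The ratio was computed for 8 members, and chance flags about 1 in 20 groups. In the same library CTNNB1 was the highest of the 4 exposed samples, at 326 CPM.

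The exposure effect at 30 weeks differed from that at 15 weeks for 2 of the 10 members (edgeR's quasi-likelihood test, adjusted p under 0.05), where 4.74% of all genes were called. The difference was 2.48 on the log2 scale for CDH3 (adjusted p = 0.006), whose exposure effects were 0.34 at 15 weeks and 2.82 at 30 weeks. Without control replicate 1 of 15 weeks it was 1.97 (adjusted p = 0.0777). For CDH2 the difference was 0.97 (adjusted p = 0.00199), from 0.20 at 15 weeks to 1.16 at 30 weeks, and it was called in all 20 alternative settings, between 0.90 and 1.01. Both exposure effects lie within a batch, but the 2 times are in different batches, so a difference between batches and a difference between times cannot be told apart.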

How the results depend on the processing

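Of 64 fold changes recomputed, 49 were called by edgeR, 35 of these kept the call in every alternative setting and 0 turned. For the exposure effect at 30 weeks, 3 of the 10 members were called by edgeR (23.7% of all genes), 4 with DESeq2 (26.5%), limma-voom (23.8%) or surrogate variables (30.5%), 2 with each time point alone (15.3%) or with at least 10 counts in every sample (24.6%), and 3 to 5 with a sample left out (5 without exposed replicate 2, where 34.2% of all genes were called). Requiring at least 10 counts in every sample removes the low cadherins from the test, and left 1 call for the difference between 30 and 15 weeks, 1 each for 15 weeks against 24 h in controls and exposed cells, and 3 for 30 against 15 weeks in controls. The difference between exposure effects gave 4 calls with surrogate variables (13.4% of all genes, against 4.74%) and 1 to 3 with a sample left out (1 without control replicate 1 of 15 weeks, 2.47% of all genes, and 3 without exposed replicate 2 of 30 weeks, 9.1%). At 24 h and 15 weeks 0 members were called in all settings.

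Some fold changes near 0 turned. CDH1 at 30 weeks was 0.18 with surrogate variables and ranged from -0.37 to 0.12 with a sample left out. CDH2 in controls of 15 weeks against 24 h was -0.008 with DESeq2 and RLE scaling, -0.022 with surrogate variables and -0.006 without a filter, and from -0.023 to 0.024 with a sample left out. CDH13 in controls of 30 against 15 weeks was 0.125 with surrogate variables and 0.004 with the replicate block, and from -0.111 to 0.026 with a sample left out. CDH2 in exposed cells of 30 against 15 weeks was -0.001 without the small noncoding RNAs and from -0.012 to 0.063 with a sample left out. The cause was not tested.

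Same-numbered samples did not deviate together at every time (correlations from -0.118 to 0.303), so the numbers are not taken as pairs. With the replicate number as a block, 3 members were called at 30 weeks, 2 for the difference between 30 and 15 weeks, 6 for controls and 6 for exposed cells of 15 weeks against 24 h, and 6 and 6 for 30 against 15 weeks. Without TMM factors 20 of 60 levels moved by over 1 SD, at ratios of 0.815 to 1.12. CDH1, CDH4, CDH6 and CDH11 are limited by depth.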
